A study of Mus musculus with 16 samples.

Results

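The phase II conjugation enzymes were followed through 2 kinds of mouse liver tumour and their control livers. Members were all genes whose probe sets carry a single symbol beginning with Ugt1, Ugt2, Ugt3, Sult, Gsta, Gstm, Gstp, Gstt or Gsto, and a gene with several such probe sets was read from the one whose mean was highest. The rule found 41 members among 18193 genes. They were 18 glutathione transferases (3 alpha, 7 mu, 2 pi, 4 theta and 2 omega), 13 sulfotransferases and 10 UDP-glycosyltransferases (8 UGT2 and 2 UGT3). No probe set named a single Ugt1 gene, so that family was read only through probe sets shared by several of its genes.

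Conjugation makes lipophilic compounds soluble enough to leave in bile or urine. UDP-glucuronosyltransferases attach glucuronic acid taken from UDP-glucuronate, sulfotransferases attach sulfate taken from the donor PAPS, and glutathione transferases join electrophiles to glutathione. The liver carries most of this work, and many of these genes are inducible through the nuclear receptors CAR and PXR or the stress-sensing factor NRF2. Phenobarbital activates CAR.

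The study set tumours carrying an activating mutation of Ctnnb1, the gene of β-catenin, or of Ha-ras against control liver, on Affymetrix GeneChip arrays with 1 array per sample. The 7 Ctnnb1-mutated tumours (replicates 1 to 7) and the 3 phenobarbital controls (replicates 4 to 6) came from mice given phenobarbital. The 3 Ha-ras-mutated tumours (replicates 1 to 3) and the 3 untreated controls (replicates 1 to 3) came from mice given plain drinking water or diet. All were male C3H/HeJ mice, and the study's design gives every animal, controls included, 1 injection of the liver carcinogen diethylnitrosamine (DEN), at 10 or 90 µg per g and an age of 2 or 6 weeks, followed by a gap of 2 weeks. Sample labels state a course of 27 weeks with phenobarbital in the water. The protocol text states 0.05% in the water for 28 days, and the design text a diet with 0.05% for 28 to 36 weeks, so that route and length stay uncertain. Each tumour genotype occurred under a single treatment, hence mutation and phenobarbital cannot be told apart when the 2 kinds of tumour are set side by side. Nothing in the labels says that the samples of a group came from separate animals, and p-values then measure only the spread between these samples, which may be technical. Pieces of whole tissue were used, in which fewer cells of a type and less RNA per cell cannot be told apart.

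Values are log2 levels after RMA, a method that corrects background, aligns the arrays and summarises probes. Array medians lay between 5.03 and 5.10. Phenobarbital control 6 stood apart: the 3′ probe set of Gapdh exceeded the 5′ one by 2.70 there, against −0.15 to 0.32 on the other 15 arrays. Some results that rest on this array are also given without it. Others are given only with it, such as the rises of Gclm and Mgst3 in Ctnnb1 tumours and the difference of Gsta3 between the tumour effects. For each of these genes it was the lowest phenobarbital control. The mean level of 4 measured hepatocyte markers was 14.13 to 14.23 in Ctnnb1 tumours and 13.93 to 14.18 in phenobarbital controls, and 14.21 to 14.26 in Ha-ras tumours and 14.10 to 14.16 in untreated controls; none of the 4 passed the test in any comparison. Stellate cell and fibroblast markers had mean levels of 7.31 to 8.15 in Ctnnb1 tumours and 8.05 to 8.49 in phenobarbital controls, and of 7.47 to 8.17 in Ha-ras tumours and 8.22 to 8.31 in untreated controls. Of these 7 markers 3 fell in Ctnnb1 tumours and 2 in Ha-ras tumours, among them Lrat, which stores retinol in stellate cells, by 2.13 in both. Others went the other way without passing. Col1a1 and Col3a1 had higher means in both kinds of tumour than in their controls, and Reln in Ha-ras tumours. Of 7 Kupffer cell and macrophage markers 1 fell in Ctnnb1 tumours and 3 in Ha-ras tumours. Their mean level was 7.93 to 8.95 in Ctnnb1 tumours and 8.80 to 9.45 in phenobarbital controls, and 6.65 to 8.95 in Ha-ras tumours and 8.68 to 9.60 in untreated controls. Cd68 went the other way in Ctnnb1 tumours without passing (0.83 ± 0.35, limma, adjusted p = 0.141), and Adgre1 differed by −0.08 there. The part of these cell types in the results was not tested. None of the 6 endothelial or 5 lymphocyte markers passed in either tumour comparison, and of 5 cholangiocyte markers 1 fell, in Ctnnb1 tumours.

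Promoters are shown for 3 of the alpha and mu glutathione transferases, classes of which 7 of 10 members rose in Ctnnb1 tumours (Gsta3 and Gstm5 among them, Gstm7 not), and for the UGT2B genes. RefSeq (GRCm38.p6) gave the 300 bases around the start of 36 of the 41 members, and 3 of them held the core of the antioxidant response element, the site that NRF2 binds, spelled TGACNNNGC and searched on both strands. The core occurred in 12.4% of 32851 promoters and in 13.99% of 27025 genes, so that 3 of 36 members is no higher a share than that over all genes. The core is in capitals below, and the start of the core relative to the gene's start is −121 in Gsta3, −42 in Gstm5 and −129 in Gstm7.
Gsta3, chr1:21240434-21240502, plus strand: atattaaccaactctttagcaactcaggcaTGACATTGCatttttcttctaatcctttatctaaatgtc
Gstm5, chr3:107895782-107895850, plus strand: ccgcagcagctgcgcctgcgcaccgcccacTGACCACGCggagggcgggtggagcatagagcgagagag
Gstm7, chr3:107931705-107931773, minus strand: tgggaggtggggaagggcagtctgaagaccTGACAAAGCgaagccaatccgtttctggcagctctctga

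The UGT2B genes lie together on chromosome 5, and their promoters were compared because all 7 measured UGT2B genes had a negative fold change in Ha-ras tumours. A negative fold change was found there for 10196 of all 18193 genes. A palindromic pair of half-sites of HNF1, a transcription factor of hepatocytes, written GTTANNNNNTAAC and the same on both strands, was present in all 7 UGT2B promoters and in that of Ugt3a1. That made 8 of 36 members, against 0.332% of all promoters and 0.389% of genes. The spacing of the half-sites was chosen after these promoters had been read, so the count is a description, and a match is not evidence of binding. Capitals mark the pair in the lines below; its first base stands between −89 and −61 from the start of these 7 genes and at −130 in Ugt3a1, and it shares no letters with a TGACNNNGC core.
Ugt2b1, chr5:86926535-86926617, minus strand: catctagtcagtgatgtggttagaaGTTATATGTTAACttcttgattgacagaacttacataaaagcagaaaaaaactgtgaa
Ugt2b34, chr5:86906953-86907035, minus strand: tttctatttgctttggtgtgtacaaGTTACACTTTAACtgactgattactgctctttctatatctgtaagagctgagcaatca
Ugt2b35, chr5:87000765-87000847, plus strand: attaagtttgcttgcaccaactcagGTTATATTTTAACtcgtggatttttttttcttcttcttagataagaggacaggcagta
Ugt2b36, chr5:87092562-87092644, minus strand: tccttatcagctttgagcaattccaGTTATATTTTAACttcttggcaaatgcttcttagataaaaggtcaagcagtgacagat
Ugt2b5, chr5:87140344-87140426, minus strand: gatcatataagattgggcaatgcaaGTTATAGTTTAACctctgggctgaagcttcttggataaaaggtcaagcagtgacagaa
Ugt2b37, chr5:87254809-87254891, minus strand: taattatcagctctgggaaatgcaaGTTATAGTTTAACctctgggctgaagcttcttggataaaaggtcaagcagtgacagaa
Ugt2b38, chr5:87424210-87424292, minus strand: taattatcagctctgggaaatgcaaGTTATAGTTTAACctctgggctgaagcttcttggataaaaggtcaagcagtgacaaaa
Over the whole 300 bases the promoters of Ugt2b37 and Ugt2b38 were identical at 91.0% of positions after global alignment, those of Ugt2b38 and Ugt2b5 at 87.0%, those of Ugt2b37 and Ugt2b5 at 82.3%, and the other pairs at 51.3% to 65.7%. Probe and transcript sequences were not compared.

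The members' values on all 16 arrays are set side by side in the heat map, in which 5 of 7 mu and 2 of 3 alpha glutathione transferases passed the test as higher in Ctnnb1 tumours and 7 of 10 UDP-glycosyltransferases as lower in Ha-ras tumours.

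**Figure D1:**
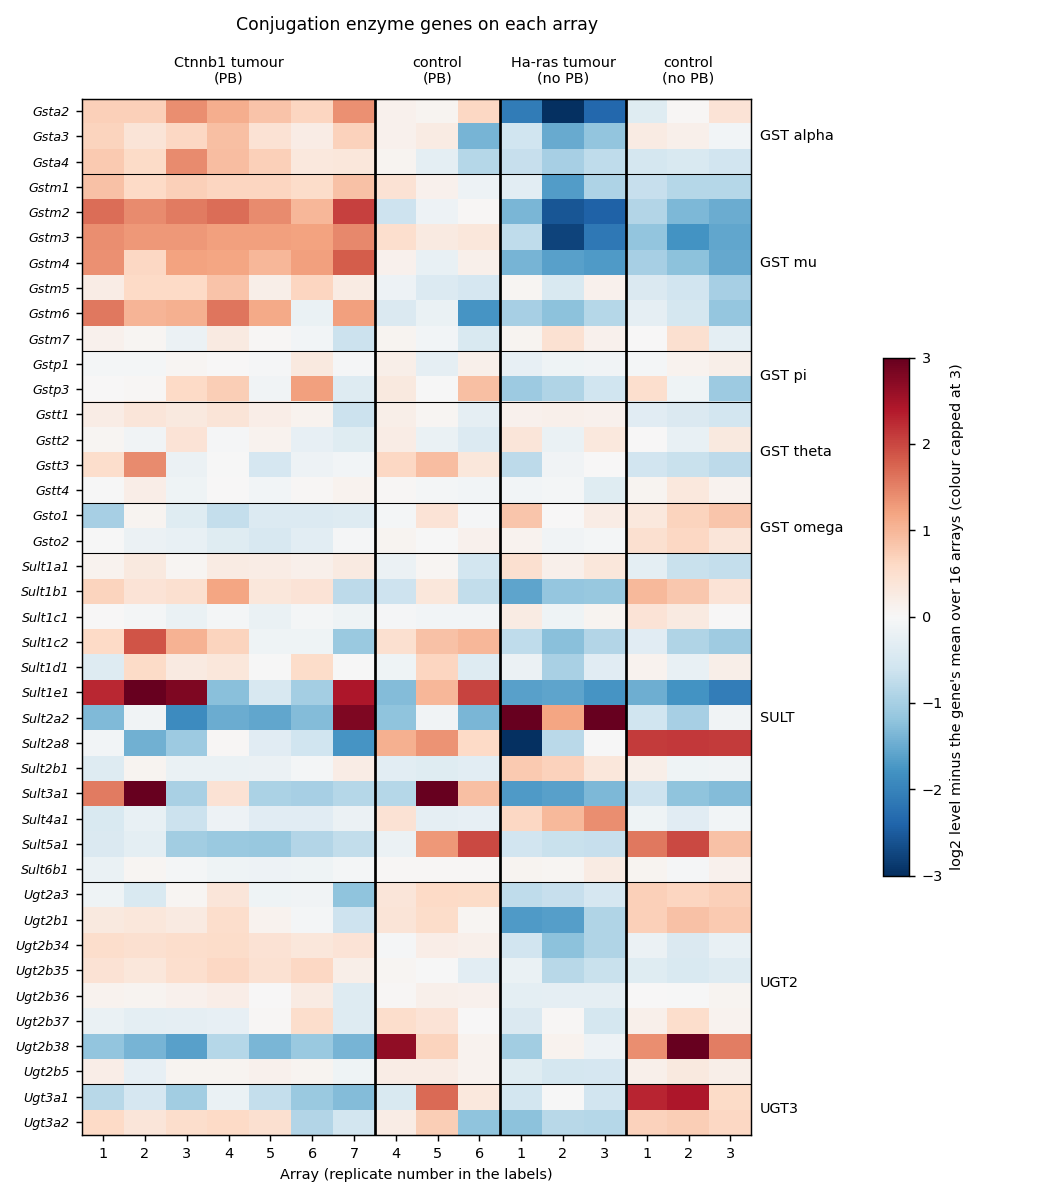
Each row is a member, each column an array, and the colour is the log2 level minus that gene's mean over 16 arrays, capped at 3 in either direction. From left to right stand 7 Ctnnb1 tumours, 3 phenobarbital controls, 3 Ha-ras tumours and 3 untreated controls. The GST alpha and mu genes other than Gstm7 are red in nearly all Ctnnb1 tumours, while Gsta2, Gstm2, Gstm3 and Ugt2b1 are blue in Ha-ras tumours. Gstm2 and Gstm3 are blue in untreated controls too, and neither passed in Ha-ras tumours.

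Of the 9 members that rose in Ctnnb1 tumours relative to phenobarbital controls, 7 were glutathione transferases of the alpha and mu classes, and the others were Sult1a1 and Ugt2b35. By limma's moderated test at an adjusted p under 0.05, 9 of the 41 members rose and 5 fell, where 6.07% of all genes rose and 5.97% fell. The median log2 fold change was 0.09 over the members and −0.03 over all genes. By class, 7 of 18 glutathione transferases rose and none fell. An unadjusted p under 0.05 was found for 11 of these 18, against 4907 of all 18193 genes. Of 13 sulfotransferases 1 rose and 2 fell, and of 10 UDP-glycosyltransferases 1 rose and 3 fell. All 7 mu and all 3 alpha genes had a positive fold change, with medians of 0.93 and 0.91. Over all genes 8270 of 18193 had a positive fold change.

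Gstm2, a mu-class transferase, was measured at 11.87, 12.43 and 12.93 (lowest, median and highest) in Ctnnb1 tumours, against 10.24, 10.71 and 10.90 in phenobarbital controls. Every tumour exceeded every control. The rise was 1.79 ± 0.25 on the log2 scale (SE, limma, adjusted p = 0.000379), or 3.46-fold. Gstm6 was at 9.56, 10.90 and 11.36 in Ctnnb1 tumours and 8.01, 9.33 and 9.57 in phenobarbital controls. The lowest tumour and the highest control had nearly the same level, and the other tumours lay above all controls. Gstm6 rose by 1.86 ± 0.36 (adjusted p = 0.00381), and by 1.38 without phenobarbital control 6, its lowest array. Gstm4 ranged over 10.86, 11.46 and 12.05 in Ctnnb1 tumours and 10.03, 10.37 and 10.41 in phenobarbital controls, with no overlap, and rose by 1.18 ± 0.19 (adjusted p = 0.00116). Gstm5, the mu-class gene known from brain and testis in mammals, rose by 0.83 ± 0.17 (adjusted p = 0.00649), with levels of 9.65 to 10.35 in Ctnnb1 tumours and 8.99 to 9.35 in phenobarbital controls. These 4 calls were kept when any single array was left out.

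Gstm3 lay in a narrow band of 14.08 to 14.32 in the 7 Ctnnb1 tumours (SD 0.09), against 13.15, 13.21 and 13.37 in phenobarbital controls. The groups were apart, yet the fold change of 0.93 ± 0.28 (adjusted p = 0.0400) was no longer called when any 1 of the 10 arrays was left out, the largest adjusted p being 0.121. Its other probe set, less bright, rose by 2.00 (adjusted p = 0.00301 over all probe sets). Gstm1 averaged 14.11 ± 0.13 in Ctnnb1 tumours and 13.54 ± 0.30 in phenobarbital controls (SD, n = 7 and 3), a difference of 0.58 that did not pass (adjusted p = 0.0765), and its 3 other probe sets, at 0.71 to 0.78, did not pass either. Gstm7 differed by 0.09 ± 0.19 and did not pass. Members of this class share sequence, and which gene a mu-class probe set measures is uncertain.

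Among the alpha class, Gsta4, which conjugates the lipid peroxidation product 4-hydroxynonenal, was at 11.78, 12.18 and 12.90 in Ctnnb1 tumours and 10.63, 11.19 and 11.56 in phenobarbital controls. All tumours lay above all controls, and the rise was 1.08 ± 0.21 (adjusted p = 0.00447). Without phenobarbital control 6, the array with 10.63, it was 0.83 and still passed. Gsta3, which detoxifies aflatoxin epoxide in mice, was at 13.15, 13.55 and 13.82 in Ctnnb1 tumours and 11.53, 13.05 and 13.16 in phenobarbital controls. The value of 11.53 belonged to phenobarbital control 6, and the other controls lay close to the tumours. Gsta3 rose by 0.91 ± 0.28 (adjusted p = 0.0456), but by 0.38 without that array, when it did not pass, and the call held in 3 of 10 runs that each left out 1 array (those without Ctnnb1 tumour 6 or phenobarbital control 4 or 5). Its other probe set differed by 0.45 and did not pass (limma, adjusted p = 0.145 over all probe sets). Gsta2 was at 12.94 to 13.69 in Ctnnb1 tumours and 12.37 to 12.90 in phenobarbital controls and did not pass (0.69 ± 0.24, adjusted p = 0.0734). A probe set shared by Gsta1, Gsta2 and Gm3776 rose by 1.63 (adjusted p = 0.00564 over all probe sets), with 12.96 to 14.31 in Ctnnb1 tumours and 11.72 to 11.99 in phenobarbital controls.

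The pi, theta and omega classes did not pass in this comparison. Gstp1, the pi-class enzyme, averaged 14.31 ± 0.13 in Ctnnb1 tumours and 14.31 ± 0.25 in phenobarbital controls, a difference of 0.00 ± 0.11. Gstt1, a theta enzyme that acts on halogenated methanes, averaged 12.54 ± 0.36 in Ctnnb1 tumours and 12.39 ± 0.22 in phenobarbital controls. Gsto1, an omega enzyme with reductase activity toward dehydroascorbate and arsenicals, averaged 9.86 ± 0.34 in Ctnnb1 tumours and 10.43 ± 0.26 in phenobarbital controls (adjusted p = 0.0932). The second probe set of Gsto1 fell by 0.71 (adjusted p = 0.0308 over all probe sets), so the call depends on the probe set. Gstp3, Gstt2, Gstt3, Gstt4 and Gsto2 had fold changes between −0.49 and 0.11.

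**Figure D2:**
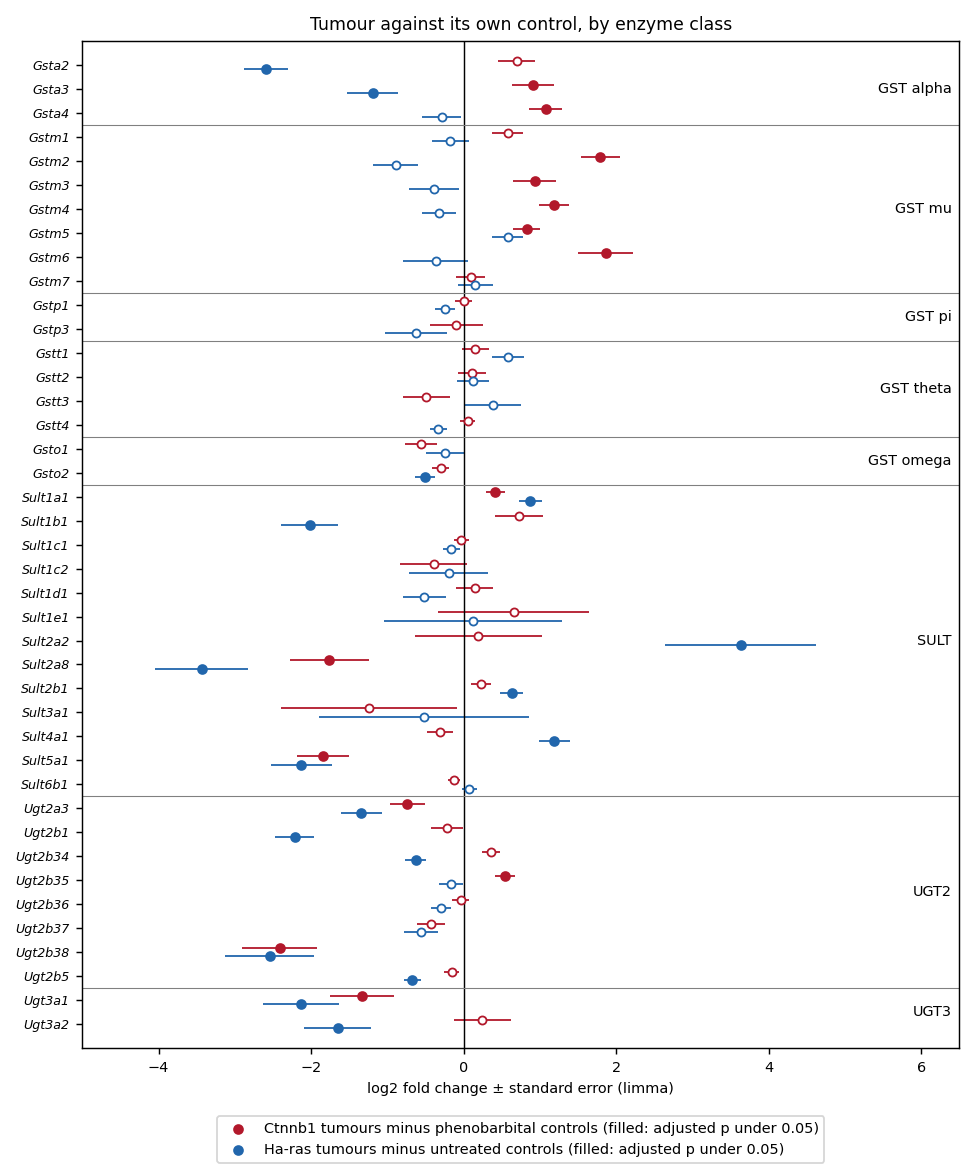
The log2 fold change of each member with its standard error from limma, in red for Ctnnb1 tumours minus phenobarbital controls and in blue for Ha-ras tumours minus untreated controls; filled points have an adjusted p under 0.05. The red points of the GST alpha and mu classes lie right of zero, and the blue points of all 10 UDP-glycosyltransferases lie left of it.

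Among UDP-glycosyltransferases, Ugt2b38 changed most in Ctnnb1 tumours. It was at 3.90, 4.15 and 4.67 in Ctnnb1 tumours, against 5.62, 6.18 and 8.19 in phenobarbital controls. The tumours stood close together below the spread controls, and the fall was 2.41 ± 0.49 (adjusted p = 0.00523, 5.33-fold lower). Its tumour levels lie below the median gene level of 6.21, where a signal can be background, so the size of the fall is uncertain. Ugt3a1, of a family that in humans transfers N-acetylglucosamine to bile acids, was at 6.04, 6.49 and 7.14 in Ctnnb1 tumours and 6.88, 7.64 and 9.03 in phenobarbital controls. These groups overlapped, and the fall of 1.34 ± 0.42 (adjusted p = 0.0484) was kept in 2 of 10 runs that each left out 1 array (Ctnnb1 tumour 4 or phenobarbital control 4), with values from −1.82 to −0.74, the smallest fall without phenobarbital control 5. Ugt2a3 averaged 11.29 ± 0.50 in Ctnnb1 tumours and 12.03 ± 0.13 in phenobarbital controls, and its fall of 0.74 ± 0.23 (adjusted p = 0.0447) was kept in 3 of those 10 runs (Ctnnb1 tumour 3, 4 or 7 left out). Ugt2b35 was the member of the family that rose, by 0.54 ± 0.13 (adjusted p = 0.0156), with 12.44 to 12.90 in Ctnnb1 tumours and 11.95 to 12.34 in phenobarbital controls; without phenobarbital control 6 it was 0.43 and did not pass. Ugt2b1, Ugt2b5, Ugt2b36 and Ugt2b37 had fold changes of −0.43 to −0.04 and did not pass, and Ugt3a2 had 0.24 ± 0.37. Ugt2b34 did not pass on its brighter probe set (0.36 ± 0.12, adjusted p = 0.0542) and did on the other (0.85, adjusted p = 0.00274 over all probe sets).

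Of the sulfotransferases, Sult5a1 was at 4.96, 5.22 and 5.79 in Ctnnb1 tumours and 5.92, 7.40 and 8.07 in phenobarbital controls. It was below every control in every tumour, and fell by 1.85 ± 0.34 (adjusted p = 0.00285). Sult2a8, which sulfates bile acids in mouse liver, was at 9.60, 10.77 and 11.41 in Ctnnb1 tumours and 11.97, 12.44 and 12.73 in phenobarbital controls. No tumour reached the lowest control. The fall of 1.76 ± 0.52 (adjusted p = 0.0367) was called in 4 of 10 runs that each left out 1 array (Ctnnb1 tumour 1, 4, 5 or 6). Sult1a1, the phenol sulfotransferase, averaged 12.88 ± 0.09 in Ctnnb1 tumours and 12.46 ± 0.31 in phenobarbital controls, and its rise of 0.42 ± 0.12 (adjusted p = 0.0402) was called in 2 of those runs (Ctnnb1 tumour 3 or phenobarbital control 5 left out), with values of 0.25 to 0.56, the lowest without phenobarbital control 6.

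Ha-ras tumours showed another picture relative to untreated controls, with 4 members higher and 13 lower. Over all genes 7.21% rose and 6.33% fell. The median log2 fold change was −0.33 over the members and −0.04 over all genes. All 10 UDP-glycosyltransferases had a negative fold change, as did 10196 of all 18193 genes. The median over the 10 was −1.01, and 7 of them fell. No glutathione transferase rose and 3 of 18 fell. An unadjusted p under 0.05 was found for 7 of these 18, against 4710 of all 18193 genes. Of 13 sulfotransferases 4 rose and 3 fell.

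Ugt2b1, a UGT2B enzyme of hepatocytes, was at 11.03, 11.07 and 11.82 in Ha-ras tumours and 13.44, 13.52 and 13.61 in untreated controls. The lowest control was above the highest tumour by a wide margin, and the fall was 2.21 ± 0.25 (adjusted p = 2.71e-05), or 4.64-fold. Ugt2b38 was at 4.48, 5.37 and 5.63 in Ha-ras tumours and 6.92, 7.06 and 9.14 in untreated controls, and fell by 2.55 ± 0.58 (adjusted p = 0.00771). Its groups did not overlap, and its tumour levels again lay below the median gene level. Ugt2a3 averaged 10.87 ± 0.14 in Ha-ras tumours and 12.21 ± 0.04 in untreated controls, and fell by 1.34 ± 0.27 (adjusted p = 0.00287). Ugt2b5 fell by 0.67 ± 0.11 (adjusted p = 0.000853), with 12.52 to 12.67 in Ha-ras tumours and 13.19 to 13.32 in untreated controls. Ugt2b34 fell by 0.63 ± 0.14 (adjusted p = 0.00578), although its other probe set, at −0.42, did not pass. Ugt2b35, Ugt2b36 and Ugt2b37 had fold changes of −0.56 to −0.16 and did not pass.

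Both UGT3 genes fell. Ugt3a1 was at 6.77, 6.79 and 7.32 in Ha-ras tumours, against 7.89, 9.62 and 9.75 in untreated controls. The fall was 2.13 ± 0.49 (adjusted p = 0.00832), and 1.75 on the other probe set, which did not pass (adjusted p = 0.0567 over all probe sets). Ugt3a2 was at 10.08, 10.47 and 10.48 in Ha-ras tumours and 11.92, 12.01 and 12.06 in untreated controls. It was lower in every tumour and fell by 1.65 ± 0.44 (adjusted p = 0.0192), a call lost without untreated control 1 or 2 or Ha-ras tumour 1, with values of −1.72 to −1.52 over the 6 runs. Of 3 probe sets shared by 8 Ugt1a genes, whose transcripts share their last exons, 1 fell by 0.62 (adjusted p = 0.00265 over all probe sets), with 12.95, 13.01 and 13.22 in Ha-ras tumours and 13.59, 13.69 and 13.76 in untreated controls. The other 2, at −0.34 and −0.46, did not pass. A probe set shared by Ugt2a1 and Ugt2a2 did not pass in any comparison.

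The sulfotransferases moved both ways in Ha-ras tumours. Sult2a8 was at 8.19, 10.55 and 11.36 in Ha-ras tumours, against 13.46, 13.47 and 13.48 in untreated controls. The controls were nearly identical and all tumours were lower, by unequal amounts, and the fall was 3.44 ± 0.61 (adjusted p = 0.00122), or 10.8-fold. Sult1b1, known for the sulfation of thyroid hormone, averaged 6.86 ± 0.26 in Ha-ras tumours, the highest at 7.02, and 8.88 ± 0.29 in untreated controls, the lowest at 8.56, and fell by 2.02 ± 0.37 (adjusted p = 0.0015). Its groups were well apart. Sult5a1 averaged 5.44 ± 0.07 in Ha-ras tumours and 7.57 ± 0.55 in untreated controls and fell by 2.13 ± 0.40 (adjusted p = 0.00195).

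Sult2a2, a hydroxysteroid sulfotransferase, was at 6.67, 9.43 and 9.58 in Ha-ras tumours and 4.50, 4.90 and 5.39 in untreated controls. Every tumour was above every control, and the rise of 3.63 ± 0.99 (adjusted p = 0.0221, 12.4-fold) was lost without untreated control 1 or 2 or Ha-ras tumour 1 or 3, with values of 3.12 to 4.58 over 6 runs that each left out 1 array. Sult4a1, best known from brain, was at 4.72, 5.07 and 5.50 in Ha-ras tumours and averaged 3.91 ± 0.13 in untreated controls. These levels lie below the median gene level of 6.21, and the rise was 1.19 ± 0.20 (adjusted p = 0.000925) on this probe set and 0.72 (adjusted p = 0.00977 over all probe sets) on the other. Sult2b1, the cholesterol sulfotransferase, rose by 0.63 ± 0.15 (adjusted p = 0.0107) at levels of 4.37 to 4.81 in Ha-ras tumours and 3.90 to 4.20 in untreated controls, and did not pass without Ha-ras tumour 1 (0.54). Sult1a1 averaged 13.00 ± 0.16 in Ha-ras tumours and 12.13 ± 0.22 in untreated controls and rose by 0.87 ± 0.15 (adjusted p = 0.000809).

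**Figure D3:**
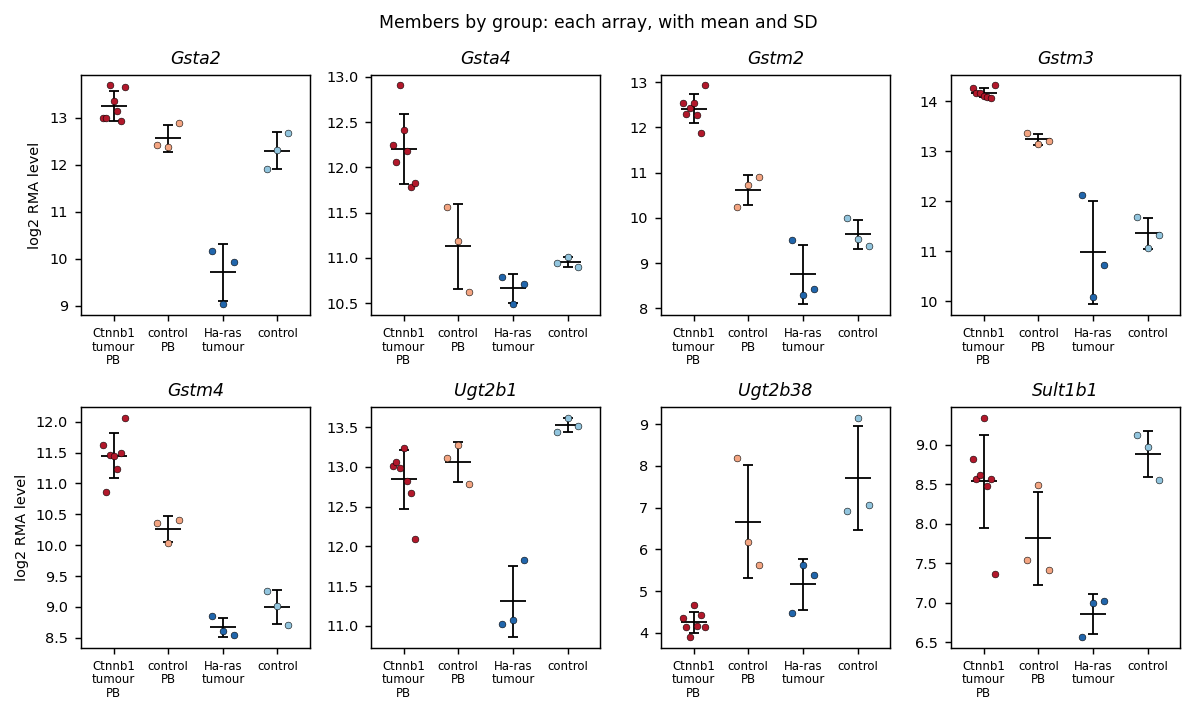
Log2 RMA level of 8 members on each array (points), with the group mean and SD (bars), for Ctnnb1 tumours, phenobarbital controls, Ha-ras tumours and untreated controls from left to right. Each panel has its own scale, which does not start at 0. Gstm2 and Gstm4 are highest in Ctnnb1 tumours, and Gsta2, Ugt2b1 and Sult1b1 lowest in Ha-ras tumours.

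Gsta2 showed the largest fall among glutathione transferases in Ha-ras tumours. It was at 9.03, 9.93 and 10.18 in Ha-ras tumours and 11.91, 12.31 and 12.68 in untreated controls. The groups were far apart, and the fall was 2.59 ± 0.29 (adjusted p = 1.97e-05), or 6.02-fold. Gsta3 was at 11.42, 11.74 and 12.33 in Ha-ras tumours and 12.84, 13.07 and 13.17 in untreated controls. It fell by 1.20 ± 0.33 (adjusted p = 0.0243), a call lost without untreated control 1 or 2 or Ha-ras tumour 2 or 3 (−1.45 to −0.99 over 6 runs), and by 1.58 on its other probe set (adjusted p = 0.000203 over all probe sets). Gsto2 fell by 0.51 ± 0.13 (adjusted p = 0.0141) at levels of 2.88 to 3.09 in Ha-ras tumours and 3.34 to 3.61 in untreated controls, where a signal can be background, and did not pass without untreated control 2 or Ha-ras tumour 2. No mu-class gene passed: Gstm2 was at −0.89 ± 0.30 (adjusted p = 0.0593), Gstm3 at −0.39 ± 0.33, and Gstm5 at 0.58 ± 0.21 (adjusted p = 0.0803). Gstm3 was uneven among Ha-ras tumours, at 10.09, 10.72 and 12.12, against 11.08, 11.32 and 11.69 in untreated controls. Gstt1 averaged 12.55 ± 0.01 in Ha-ras tumours and 11.97 ± 0.10 in untreated controls, and did not pass (adjusted p = 0.0789).

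Between the tumour comparisons, which share no sample, 1 member rose in both (Sult1a1) and 17 of 41 passed in neither. In both, 5 members fell (Sult5a1, Sult2a8, Ugt2a3, Ugt2b38 and Ugt3a1). Gsta3 alone rose in Ctnnb1 tumours and fell in Ha-ras tumours, and on its other probe set the rise did not pass. These counts were not made over all genes, so no background share stands beside them. The difference of the tumour effects was tested as the change in Ctnnb1 tumours minus that in Ha-ras tumours. By this test 9 members were higher and 1 was lower, where 2.14% of all genes were higher and 3.29% lower, and the median difference was 0.38 over the members and 0.01 over all genes. All 3 alpha genes passed: Gsta2 at 3.28 ± 0.37 (adjusted p = 6.82e-05), Gsta3 at 2.10 ± 0.43 (adjusted p = 0.00852) and Gsta4 at 1.36 ± 0.33 (adjusted p = 0.0236). Of the mu class, Gstm2 differed by 2.68 ± 0.39 (adjusted p = 0.000563), Gstm6 by 2.22 ± 0.56 (adjusted p = 0.0277) and Gstm4 by 1.51 ± 0.30 (adjusted p = 0.00611). Without phenobarbital control 6 the differences of Gsta4 and Gstm6 were 1.12 and 1.74 and did not pass; both calls were also lost without untreated control 1 or 2 or Ha-ras tumour 2, and that of Gstm6 without Ha-ras tumour 1.

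Ugt2b1 differed by 2.00 ± 0.33 (adjusted p = 0.00177) and Ugt2b34 by 0.99 ± 0.18 (adjusted p = 0.00363), while the 8 other UDP-glycosyltransferases had positive differences that did not pass. Over all genes 9421 of 18193 had a positive difference. Sult1b1 differed by 2.74 ± 0.48 (adjusted p = 0.00278). Sult4a1 differed the opposite way, by −1.50 ± 0.27 (adjusted p = 0.00298). The shared Gsta1, Gsta2 and Gm3776 probe set differed by 3.13 (adjusted p = 0.00173 over all probe sets). For the 5 members that fell in both kinds of tumour the difference did not pass. That of Ugt2b38 was 0.13, with a 95% confidence interval of −1.49 to 1.76, and its levels in both kinds of tumour lay below the median gene level.

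Phenobarbital controls and untreated controls differed in few members. By the limma test 2 of 41 rose under phenobarbital and none fell, where 0.132% of all genes rose and 0.0824% fell. Both genes belong to the mu class. An unadjusted p under 0.05 was found for 12 of the 41 members, against 2480 of all 18193 genes. Gstm3 was at 13.15, 13.21 and 13.37 in phenobarbital controls and 11.08, 11.32 and 11.69 in untreated controls. The groups stood clear of each other, and the rise was 1.88 ± 0.33 (adjusted p = 0.0315), or 3.68-fold, and 2.36 on the other probe set. Gstm4 was at 10.03, 10.37 and 10.41 in phenobarbital controls and 8.71, 9.02 and 9.26 in untreated controls, and rose by 1.27 ± 0.23 (adjusted p = 0.0315). Each call was kept only without phenobarbital control 5 among 6 runs that each left out 1 array, with log2 fold changes of 1.74 to 2.05 for Gstm3 and 1.13 to 1.41 for Gstm4. Gstm1 and Gstm2 had 0.92 ± 0.24 and 0.98 ± 0.30 and did not pass. Cyp2b10, the P450 used as a marker of CAR activity, rose by 5.08 ± 0.51 (adjusted p = 0.000352). This comparison shares its controls with both tumour comparisons.

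Set out over the 4 groups, the mean of Ctnnb1 tumours was the highest for 13 of 41 members, 9 of them glutathione transferases, and the mean of Ha-ras tumours was the lowest for 24 of 41, among them 11 of 18 glutathione transferases and 8 of 10 UDP-glycosyltransferases. As an example, Gstm4 averaged 11.45 ± 0.36 in Ctnnb1 tumours, 10.27 ± 0.21 in phenobarbital controls, 8.67 ± 0.16 in Ha-ras tumours and 8.99 ± 0.28 in untreated controls (SD, n = 7, 3, 3 and 3). The last 2 groups do not differ beyond their spread. Some genes hardly moved: Gstp1 averaged 14.12 to 14.36 and Ugt2b36 13.24 to 13.62 over the 4 groups. The highest and lowest groups were not counted over all genes. These counts also take in members that passed in no comparison, such as Gstm1, Gstp1 and Gstt4.

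A few sulfotransferases varied widely among the 7 Ctnnb1 tumours, while Sult1c1, Sult6b1 and Sult1a1 had SDs of 0.080 to 0.086. The SD over these tumours had a median of 0.31 over the 41 members and exceeded 1 in 3, namely Sult3a1 (2.09), Sult1e1 (2.08) and Sult2a2 (1.64). Sult1e1, the estrogen sulfotransferase, was at 8.38, 9.98, 8.93 and 8.56 in Ctnnb1 tumours 1, 2, 3 and 7 and at 4.87, 5.64 and 5.11 in tumours 4, 5 and 6. Phenobarbital controls were also spread, with 4.84, 7.11 and 8.14, and the 6 arrays without phenobarbital lay between 4.06 and 4.65. Sult3a1, an amine sulfotransferase that is higher in female mouse liver, reached 9.26 in Ctnnb1 tumour 2 and 9.57 in phenobarbital control 5, against 3.67 to 6.23 on the other tumour arrays of that genotype and 3.80 and 5.56 in the other controls. Under phenobarbital the controls differed from untreated ones by 2.35 ± 1.17 for Sult1e1 (adjusted p = 0.391) and 2.68 ± 1.37 for Sult3a1 (adjusted p = 0.405), and neither passed. In Ctnnb1 tumours the 2 genes differed by 0.66 ± 0.99 and −1.24 ± 1.16 from phenobarbital controls. Sult1c1, Sult1c2, Sult1d1 and Sult6b1 passed in no comparison.

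**Figure D4:**
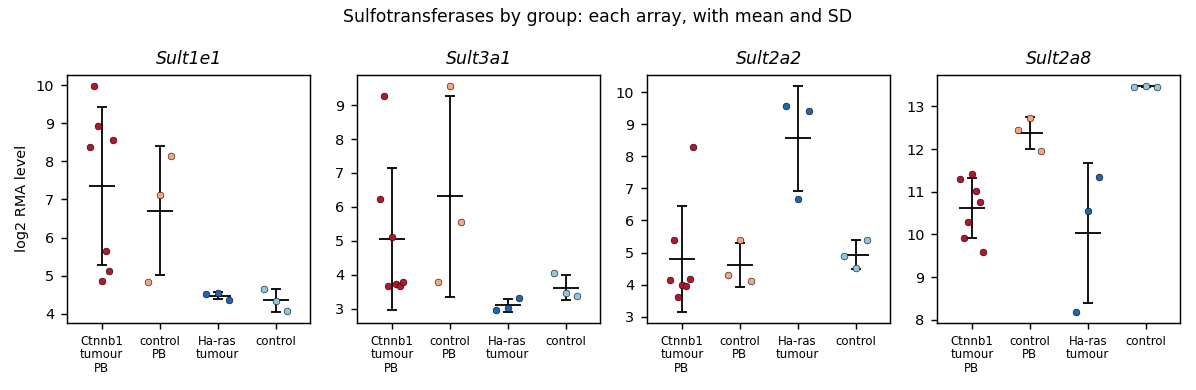
Log2 RMA level of 4 sulfotransferases on each array (points), with the group mean and SD (bars); panels have their own scales, which do not start at 0. Sult1e1 and Sult3a1 spread over several log2 units in Ctnnb1 tumours and phenobarbital controls and lie low on all arrays without phenobarbital. Sult2a2 is high in 3 Ha-ras tumours and 1 Ctnnb1 tumour, and Sult2a8 is highest in untreated controls.

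The genes that feed the 3 conjugation routes were read from lists. Of 7 genes of glucuronidation supply, 2 rose and none fell in Ctnnb1 tumours, and 1 rose and 3 fell in Ha-ras tumours. Ugdh makes UDP-glucuronate. It was at 13.18, 13.32 and 13.41 in Ctnnb1 tumours against 12.44, 12.55 and 12.99 in phenobarbital controls, and at 10.96, 11.07 and 11.50 in Ha-ras tumours against 11.63, 11.78 and 11.93 in untreated controls. It was higher in each Ctnnb1 tumour and lower in each Ha-ras tumour than in any of its controls: 0.65 ± 0.13 (adjusted p = 0.00433) and −0.60 ± 0.15 (adjusted p = 0.0142), a difference of 1.25 (adjusted p = 0.00124). It rose by 0.88 in phenobarbital controls relative to untreated ones (adjusted p = 0.0315). Its fall was lost without untreated control 1 or Ha-ras tumour 2 or 3, and its rise under phenobarbital was kept only without phenobarbital control 5. Entpd5, an enzyme of the endoplasmic reticulum that hydrolyses UDP, rose by 1.20 ± 0.16 in Ctnnb1 tumours and fell by 0.92 ± 0.19 in Ha-ras tumours, with adjusted p-values of 0.000238 and 0.00318. Gusb, the β-glucuronidase that reverses the conjugation, rose by 0.74 in Ha-ras tumours (adjusted p = 0.00322).

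Of 8 measured genes of sulfation supply none passed in Ctnnb1 tumours and 3 fell in Ha-ras tumours: Suox, sulfite oxidase, by 1.91, Slc26a1, a sulfate transporter, by 1.29, and Bpnt1, which clears the by-product of PAPS, by 0.58 (adjusted p = 0.00807, 0.0120 and 0.0186). The calls of Slc26a1 and Bpnt1 were each lost in 2 of 6 runs that left out 1 array. Papss1 and Papss2, which make PAPS, did not pass in either. Of 18 measured genes of glutathione supply and mercapturate formation 4 rose and 1 fell in Ctnnb1 tumours, and 4 rose and 5 fell in Ha-ras tumours. Gclm, the modifier subunit of the first enzyme of glutathione synthesis, was at 11.65, 11.88 and 12.08 in Ctnnb1 tumours against 10.56, 11.20 and 11.36 in phenobarbital controls, and at 10.23, 10.49 and 10.54 in Ha-ras tumours against 10.91, 11.14 and 11.16 in untreated controls. It rose by 0.82 ± 0.15 in Ctnnb1 tumours (adjusted p = 0.00224) and fell by 0.65 ± 0.17 in Ha-ras tumours (adjusted p = 0.0193). The fall was lost without untreated control 1 or 2 or Ha-ras tumour 1, and the rise of Gss in Ctnnb1 tumours without phenobarbital control 6. Gss, glutathione synthetase, rose by 0.86 in Ctnnb1 tumours (adjusted p = 0.0124) and by 1.02 in Ha-ras tumours (adjusted p = 0.00917), and Nat8, which acetylates the cysteine conjugate in the last step, fell by 2.97 ± 0.60 in Ha-ras tumours (adjusted p = 0.00306).

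Other transferases and transporters differed as well. Of 9 genes of other glutathione transferase families 2 rose and 2 fell in Ctnnb1 tumours and 2 fell in Ha-ras tumours. Mgst3, a microsomal enzyme, rose by 1.47 ± 0.25 in Ctnnb1 tumours (adjusted p = 0.00154), and Gstk1, the kappa-class enzyme, fell by 1.04 in Ctnnb1 tumours (adjusted p = 0.00137) and by 1.24 in Ha-ras tumours (adjusted p = 0.000646). Of 14 measured genes of other conjugations 3 fell in Ctnnb1 tumours, 6 fell in Ha-ras tumours and none rose in either; Nnmt, nicotinamide N-methyltransferase, fell by 3.59 in Ctnnb1 tumours (adjusted p = 0.00477) and by 3.37 in Ha-ras tumours (adjusted p = 0.0147, lost without untreated control 1 or Ha-ras tumour 1 or 2). Acsm5 and Acsm1, medium-chain acyl-CoA synthetases, fell by 2.31 and 2.06, and Baat, which joins bile acids to amino acids, by 1.67 in Ha-ras tumours. Of 7 exporters of conjugates 2 rose in Ctnnb1 tumours. Abcc4 rose by 2.78 ± 0.61 and Abcc2 by 0.89 ± 0.16 (limma, adjusted p = 0.0086 and 0.00216). Abcc4 ranged from 8.87 to 12.44 in Ctnnb1 tumours and from 7.18 to 9.04 in phenobarbital controls, so these groups overlapped. In Ha-ras tumours 1 exporter fell, Abcc6 by 1.88. It was at 5.08, 6.88 and 7.33 there, against 8.14 to 8.45 in untreated controls.

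Regulators of these genes were measured in 11 cases, of which 2 rose in Ctnnb1 tumours and 1 rose and 2 fell in Ha-ras tumours. Nr1i3 encodes CAR. It was at 6.16, 6.64 and 7.31 in Ha-ras tumours and 8.56, 9.45 and 9.46 in untreated controls. All Ha-ras tumours were lower, by 2.46 ± 0.29 (adjusted p = 3.58e-05), while Ctnnb1 tumours differed by 0.71 ± 0.24 from phenobarbital controls and did not pass (adjusted p = 0.0720). The difference between the tumour effects was 3.16 (adjusted p = 0.000109). Nfe2l2 encodes NRF2. Its mRNA rose in both, by 0.70 ± 0.15 in Ctnnb1 tumours and 0.96 ± 0.18 in Ha-ras tumours (adjusted p = 0.00846 and 0.00185); the call in Ctnnb1 tumours was lost without phenobarbital control 6 (0.54). Ahr, the dioxin receptor, rose by 1.44 ± 0.16 in Ctnnb1 tumours (adjusted p = 0.000105). Nr1i2, which encodes PXR, and Hnf4a did not pass in any comparison.

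Of 5 measured inducible phase I markers 2 rose in Ctnnb1 tumours, Nqo1 by 1.96 ± 0.52 and Ephx1 by 0.97 ± 0.13 (adjusted p = 0.0238 and 0.000315); that of Nqo1 was lost without phenobarbital control 4 or 6. Cyp1a2 fell by 2.62 ± 0.39 in Ha-ras tumours (adjusted p = 0.000305). Cyp2b10 averaged 12.82 ± 0.31 in Ctnnb1 tumours and 12.62 ± 0.18 in phenobarbital controls (adjusted p = 0.814), and 7.38 ± 1.45 in Ha-ras tumours and 7.54 ± 0.76 in untreated controls (adjusted p = 0.888). Its level thus followed the treatment of each array and did not pass in either tumour comparison.

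**Figure D5:**
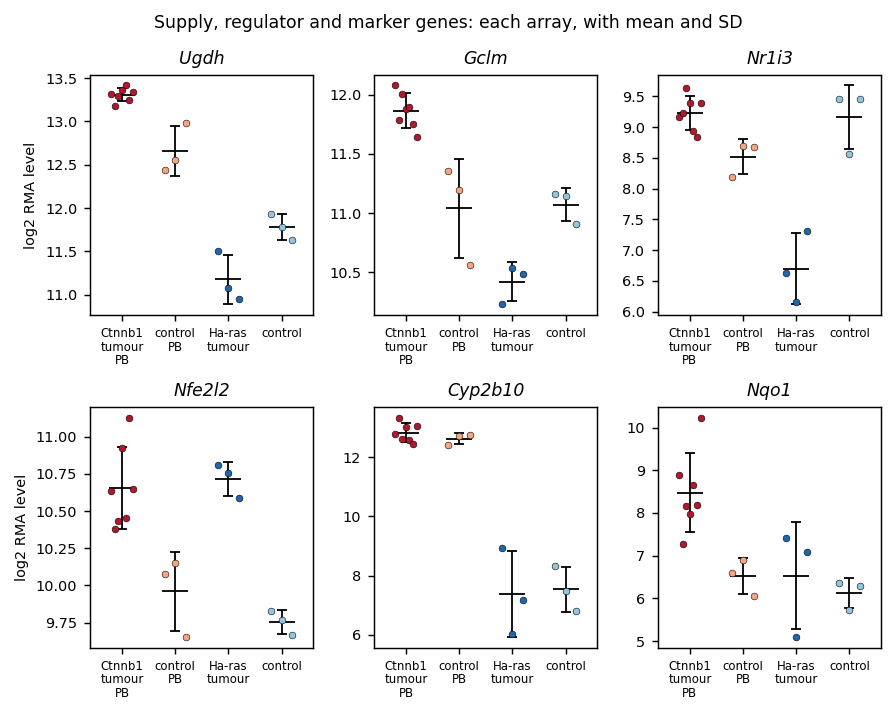
Log2 RMA level of 6 supply, regulator and marker genes on each array (points), with the group mean and SD (bars), in the order Ctnnb1 tumours, phenobarbital controls, Ha-ras tumours, untreated controls; each panel has its own scale, which does not start at 0. Ugdh and Gclm are highest in Ctnnb1 tumours and lowest in Ha-ras tumours, Nr1i3 is lowest in Ha-ras tumours, and Cyp2b10 is high on every array with phenobarbital.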

How the data were processed

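Expression was measured on 16 GeneChip arrays, 7 of Ctnnb1 tumours and 3 of each other group. The deposited values are log2 levels per probe set after RMA in R 2.14.1, per the submitters' processing notes. They were used without further scaling; no detection calls were used, so low values may be background, and the number of arrays limits the precision. Of 45101 probe sets, 64 were array controls, and 34945 had 1 gene symbol in the platform annotation, 932 several and 9160 none; 34741 of those with 1 symbol were matched by Entrez identifier to RefSeq (GRCm38.p6), with 0 renamed. The probe set with the highest mean stood for each of 18193 genes; 9 members had more than 1, and the 11 other probe sets and 5 with several symbols were tested in a fit over all probe sets.

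Groups were compared two-sided with limma 3.58.1 in R 4.3.3 (lmFit and eBayes, a mean per group, all 16 arrays), with Benjamini-Hochberg adjustment over all genes and a threshold of 0.05. The spread was estimated over all 16 arrays, so a standard error also takes in groups outside the comparison. The difference between tumour effects was a contrast of the 4 groups. The steps were tested on simulated data. Promoters were searched with Python 3.11.15 and aligned with Biopython 1.88. The members, the gene lists and the rule for named genes (members by family, then listed pathway genes) were chosen with earlier results of these data known. Alternatives were fits of the compared arrays only, a replicate block, no dim genes, other probe set summaries, quantile normalization, median centring, trend and robust eBayes, array weights, a 2-fold minimum and each array left out.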

Additional observations from a re-analysis of the deposited data

Results flagged for a closer look

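Single arrays stood apart from the rest of the 7 Ctnnb1 tumours for 5 members; by chance about 1 in 20 groups shows such an array. Gstm6 was lowest in tumour 6, at 9.56 against 10.79 in the next. Gstp1 was highest in the same tumour, at 14.58 against 14.35. Gstt1 was lowest in tumour 7, at 11.77 against 12.51, as was Ugt2b36, at 13.14 against 13.53. Sult2a2 was highest in tumour 7, at 8.30 against 5.38.

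For 10 members the change in Ctnnb1 tumours differed from that in Ha-ras tumours by limma's test of the difference. The difference was 3.28 for Gsta2, 2.74 for Sult1b1, 2.68 for Gstm2, 2.22 for Gstm6, 2.10 for Gsta3, 2.00 for Ugt2b1, 1.51 for Gstm4, 1.36 for Gsta4, 0.99 for Ugt2b34 and −1.50 for Sult4a1, all on the log2 scale. Genotype and phenobarbital cannot be told apart in it.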

How the results depend on the processing

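The counts of members that rose or fell depended on the settings to unequal degree. In Ha-ras tumours the 13 falls were 10 to 14 under all 12 other settings and 10 to 14 with 1 array left out, and the 9 positive differences between the tumour effects were 8 to 11 and 7 to 13. In Ctnnb1 tumours the 9 rises were 4 with a minimum of 2-fold and 5 both in the fit with a fixed replicate block (12 arrays) and on those 12 arrays without it, a setting chosen after seeing the data; with 1 array left out they were 5 to 8. The 5 falls were 2 with that block, and 3 on the 12 arrays without it, on the compared arrays alone, without dim genes, with arrays centred on the median, with trend and robust eBayes, and with array weights; with 1 array left out they were 2 to 5. The 4 rises in Ha-ras tumours were 1 without dim genes and 2 with a 2-fold minimum, and 2 to 5 with 1 array left out. The 1 negative difference was 2 with the replicate block, 3 on its 12 arrays without it, 0 without dim genes and 2 with array weights, and 1 to 2 with 1 array left out. The 2 rises under phenobarbital were 1 on the compared arrays alone and 0 to 2 with 1 array left out. The cause of these shifts was not tested. Some of those fits held fewer arrays or genes, while median centring, trend and robust eBayes, and array weights used all of them.

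Of single calls, 7 of 14 in Ctnnb1 tumours, 12 of 17 in Ha-ras tumours, 8 of 10 differences and 0 of 2 under phenobarbital were kept in every run with 1 array left out. Under every other setting that tested the gene, the 2-fold minimum aside, 5 of 14, 14 of 17, 8 of 10 and 1 of 2 of these calls were kept. The difference of Gusb turned from −0.72 to 0.0402 on its probe set with the highest variance. Replicate numbers were not taken to pair samples. Residuals of same-numbered arrays correlated at −0.015 to 0.003 in the Ctnnb1 comparison, and those of differently numbered arrays at −0.087 to 0.072. In the Ha-ras comparison the same-numbered arrays correlated at 0.03 to 0.40 and the differently numbered ones at −0.32 to 0.07. So few arrays cannot settle whether the Ha-ras samples were paired. Signal near background limits the genes below the median gene level, 12 of the 41 members.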
